A study of Mus musculus with 39 samples.

Results

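Vasopressin and oxytocin are closely related neuropeptides, and their genes and receptor genes were followed here through 4 brain regions of mice that lack *Pianp* and of control mice. The members were chosen by gene symbol: *Avp*, which encodes the vasopressin precursor, *Oxt*, which encodes the oxytocin precursor, *Avpr1a* and *Avpr1b*, which encode vasopressin receptors, *Oxtr*, which encodes the oxytocin receptor, and *Cd38*, which encodes an enzyme needed for oxytocin release. Of the 6 members, 5 had a probe set of their symbol among 25429 probe sets, of which 24675 carried 1 gene symbol. *Cd38* was not analysed here. *Avp* had been listed by the study for a difference between genotypes in these same samples. Every genotype difference of *Avp* is therefore given as a description and without a test. The study also measured *Avp* by quantitative PCR in the same regions. Its text reports the outcome of that follow-up for *Erdr1* and does not state it for *Avp*. Those PCR values were not used here.

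Pianp is a neuronal membrane protein that binds a subunit of the presynaptic GABA type B receptor, and the study compared gene expression in its absence. PianpKO mice were constitutive knockouts from a cross of *Pianp* floxed mice with a CMV-cre line that deletes in all tissues, and control mice were *Pianp* floxed mice without that deletion. Both came from C57BL/6N embryonic stem cells and had passed through a FLP deleter cross, and all were adult, male and experimentally naive. The paper describes the cross with the CMV-cre line for the PianpKO mice only. Any part of that line's genetic background in the genotype differences was not tested. RNA of the amygdala, cortex, hippocampus and hypothalamus, cut out by brain punches, was read on Affymetrix whole-transcript arrays, 1 array per mouse and region, giving 39 arrays from 5 PianpKO mice and 5 control mice. Every group held 5 samples except the control amygdala with 4, since no amygdala sample of control mouse 4 was analysed here. Replicates of a group were different mice, and the same replicate number in another region marks the same mouse.

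The deposited values had been quantile normalized, which gives every array the same distribution, so the median was 4.62 on the log2 scale in every sample. Samples of 1 group correlated at 0.989 to 0.996. *Pianp* itself lay between 5.10 and 6.17 in the PianpKO samples and between 7.08 and 8.16 in the control samples. The mean level of 9 measured transcription factor genes of the hypothalamus was 5.23 to 5.48 in the hypothalamus of PianpKO mice and 4.99 to 5.32 in that of control mice, against 4.81 to 5.32 in PianpKO amygdala and at most 4.95 in the other groups. Markers of hippocampal neurons were highest in the hippocampus and those of cortical projection neurons in the cortex. Markers of amygdala neurons did not set the amygdala apart, since their mean was 7.30 to 7.63 in PianpKO amygdala and 6.86 to 7.50 in control amygdala, but 7.48 to 7.98 in PianpKO hippocampus and 7.69 to 8.01 in control hippocampus. Markers of the thalamus and of the choroid plexus were highest in the hippocampal samples of both genotypes.

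Vasopressin and oxytocin are made mainly by magnocellular neurons of the paraventricular and supraoptic nuclei of the hypothalamus, which send them through the pituitary into the blood, and by smaller neurons that release them within the brain. Vasopressin is also made in the suprachiasmatic nucleus and in the extended amygdala, where it serves social recognition and aggression, while oxytocin serves birth, lactation, maternal care and social bonding. *Avpr1a*, *Avpr1b* and *Oxtr* encode G protein coupled receptors that act through Gq proteins, phospholipase C and calcium.

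*Avp* and *Oxt* are neighbours on mouse chromosome 2 and are read from opposite strands. The 250 bases before each gene start are shown because the levels of these genes were the most alike among the members. They are from RefSeq on GRCm38.p6, at chr2:130582589-130582838 on the minus strand for *Avp* and at chr2:130575919-130576168 on the plus strand for *Oxt*, each written 5′ to 3′ along its gene. Capitals mark 3 motifs searched on both strands: CACGTG, an E-box bound by basic helix-loop-helix factors such as the clock proteins, ATAAA, the core of a TATA-like box, and TGACC, letters bound by many nuclear receptors (GGTCA when read on the other strand).
*Avp*: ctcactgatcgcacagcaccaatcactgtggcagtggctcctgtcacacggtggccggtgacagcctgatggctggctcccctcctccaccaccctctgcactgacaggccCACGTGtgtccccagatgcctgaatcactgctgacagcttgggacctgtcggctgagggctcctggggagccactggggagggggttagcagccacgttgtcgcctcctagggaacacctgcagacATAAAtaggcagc
*Oxt*: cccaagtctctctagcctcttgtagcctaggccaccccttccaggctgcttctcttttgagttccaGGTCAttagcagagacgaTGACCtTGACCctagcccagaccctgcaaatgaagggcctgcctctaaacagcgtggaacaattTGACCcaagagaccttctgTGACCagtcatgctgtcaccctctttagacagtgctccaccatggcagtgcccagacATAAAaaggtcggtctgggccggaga
The *Avp* stretch held CACGTG at positions -139 to -134 and ATAAA at -13 to -9, counted back from the last base before the gene start, and no TGACC. The *Oxt* stretch held ATAAA at -26 to -22 and TGACC at 5 places, 1 of them on the other strand, and no CACGTG. Of 32851 mouse promoter stretches of the same length, 6.02% held CACGTG, 37.3% held ATAAA and 35.2% held TGACC. Promoter entries were found for *Avp*, *Oxt*, *Avpr1a* and *Oxtr*, and the letters alone say nothing of which factors bound.

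Both peptide genes were strongest in the hypothalamus, next in the amygdala and weak in the cortex and hippocampus. In hypothalamus, *Avp* read 11.92, 12.72, 12.38, 12.81 and 12.72 in PianpKO replicates 1 to 5 and 11.50, 12.16, 11.46, 11.93 and 12.29 in control replicates 1 to 5, all in log2 units. In amygdala, *Avp* was 12.19, 11.10, 12.45, 9.75 and 10.63 in PianpKO replicates 1 to 5 and 9.55, 10.38, 10.86 and 10.20 in control replicates 1, 2, 3 and 5. PianpKO amygdala replicates 1 and 3 thus reached the range of the hypothalamus, while no control amygdala sample did.

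In cortex, *Avp* was much lower, at 6.70, 6.14, 6.53, 5.59 and 6.04 in PianpKO mice and 6.55, 6.79, 6.39, 6.35 and 6.79 in control mice. In hippocampus it was 5.95, 5.78, 6.22, 5.004 and 5.76 in PianpKO mice, against 5.78, 8.71, 9.43, 6.79 and 7.30 in control mice. The control hippocampus was the group of *Avp* with the widest spread (SD 1.47), with replicates 2 and 3 far above the rest and replicate 1 inside the PianpKO range. *Avp* was above the array median in 39 of 39 samples.

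*Oxt* followed the same regional plan. In hypothalamus it was 9.88, 9.66, 8.97, 9.65 and 9.91 in PianpKO mice and 9.998, 8.91, 9.03, 9.07 and 9.44 in control mice. In amygdala it was 8.07, 7.11, 9.40, 6.22 and 6.75 in PianpKO replicates 1 to 5 and 5.38, 6.78, 7.56 and 5.45 in control replicates 1, 2, 3 and 5. The amygdala samples spanned over 4 log2 units, and PianpKO replicate 3 was inside the range of the hypothalamus.

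In cortex, *Oxt* was 3.83, 3.81, 3.95, 4.17 and 3.68 in PianpKO mice and 3.38, 4.01, 3.59, 4.22 and 3.72 in control mice. In hippocampus it was 4.46, 3.73, 3.56, 3.89 and 3.83 in PianpKO mice and 3.52, 4.32, 5.18, 3.57 and 4.20 in control mice. All cortical samples were below the array median, and of the hippocampal samples only control replicate 3 exceeded it. Of all samples, 20 of 39 were above the median.

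**Figure D1:**
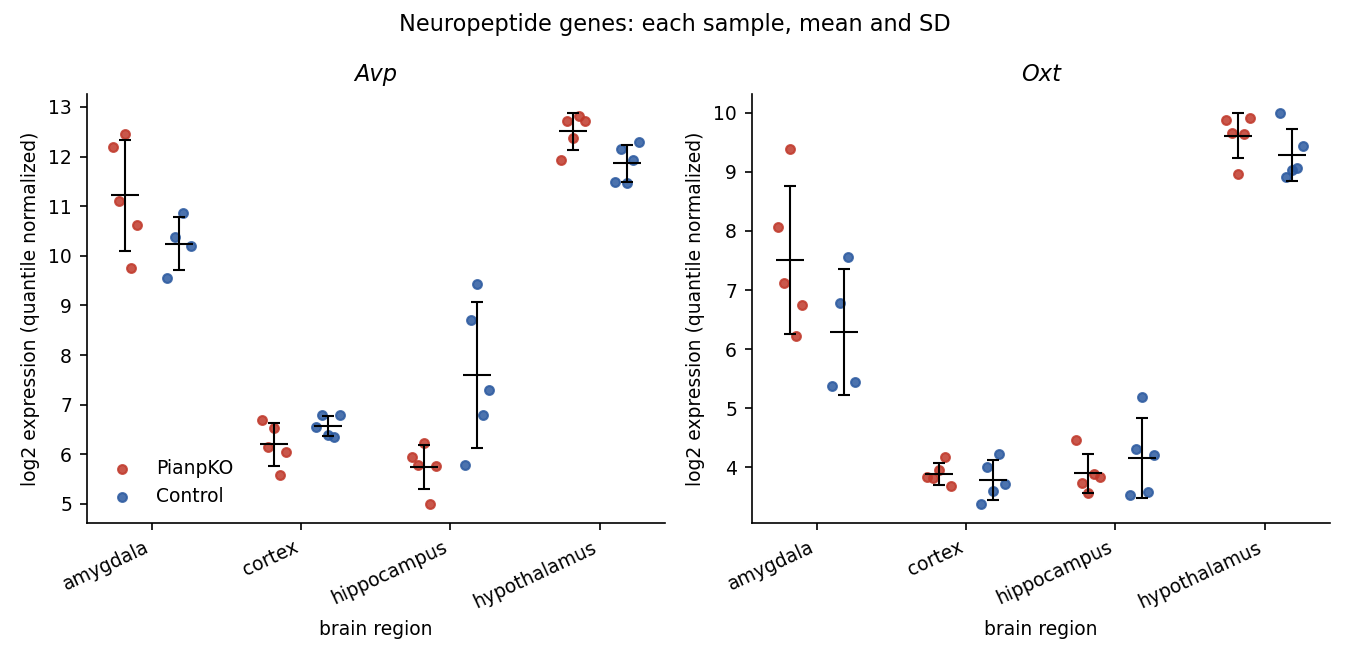
Log2 expression of *Avp* (left panel) and *Oxt* (right panel) in every sample by brain region, PianpKO mice in red left of control mice in blue, with horizontal bars for the mean and whiskers for 1 SD (n = 5, control amygdala n = 4). Both genes were highest in the hypothalamus, amygdala samples were widely spread, and *Avp* in the control hippocampus ran between 5.78 and 9.43.

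The regional order was tested in control mice by limma with the mouse as a random block, with p-values adjusted over all probe sets. In hypothalamus over cortex, *Avp* was higher by 5.29 (SE 0.44, 39.2-fold, adjusted p = 5.6e-08), *Oxt* by 5.51 (SE 0.36, 45.4-fold, adjusted p = 3.7e-09) and *Avpr1a* by 0.66 (SE 0.12, adjusted p = 0.00031), so 3 of 5 members were called, where 23% of all probe sets were. Over the hippocampus, the hypothalamus was higher in *Avp* by 4.27 (SE 0.44, adjusted p = 1.6e-06), in *Oxt* by 5.13 (SE 0.36, adjusted p = 3.3e-08) and in *Avpr1a* by 0.61 (SE 0.12, adjusted p = 0.0013), again 3 of 5 members against 13.2% of all probe sets. *Oxtr* was also higher in the hypothalamus, by 0.34 over cortex and 0.26 over hippocampus, without being called (adjusted p = 0.17 and 0.39).

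Set against the amygdala, the hypothalamus of control mice was higher in *Oxt* by 3.005 (SE 0.38, 8.03-fold, adjusted p = 0.00023), in *Avp* by 1.64 (SE 0.47, 3.12-fold, adjusted p = 0.037) and in *Avpr1a* by 0.43 (SE 0.13, adjusted p = 0.045). Of all probe sets 7.41% were called, and of the members 3 of 5. The calls of *Avp* and *Avpr1a* were narrow: without the block on mouse both lost them (adjusted p = 0.069 each), and without control replicate 1, 2 or 5 the only member called was *Oxt*, while without replicate 3 *Avpr1a* and without replicate 4 *Avp* lost its call.

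In hippocampus over amygdala of control mice, *Avp* differed by -2.62 (SE 0.47, adjusted p = 0.00075), *Oxt* differed by -2.13 (SE 0.38, adjusted p = 0.00084) and *Oxtr* by -0.81 (SE 0.18, adjusted p = 0.0043), 3 of 5 members where 10.9% of all probe sets were called. In amygdala over cortex, *Avp* was higher by 3.65 (SE 0.47, adjusted p = 2.4e-05), *Oxt* by 2.50 (SE 0.38, adjusted p = 0.00018) and *Oxtr* by 0.89 (SE 0.18, adjusted p = 0.0022), where 10.2% of all probe sets were called. Hippocampus and cortex of control mice were neighbours in the order of both peptides, and neither peptide was called between them after adjustment. There *Avp* differed by 1.03 (SE 0.44, 95% interval 0.11 to 1.95, adjusted p = 0.14 by limma). In that comparison 0 of 5 members were called by limma, with 1 (*Avp*) at an unadjusted p under 0.05, where 14.5% of all probe sets were called. Without control replicate 1, *Avp* was called there, with a difference of 1.48 (adjusted p = 0.032).

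In PianpKO mice the same contrasts were read in a separate fit. *Avp* was higher in the hypothalamus than in the amygdala by 1.29 (adjusted p = 0.034), than in the cortex by 6.31 (adjusted p = 1.3e-10) and than in the hippocampus by 6.77 (adjusted p = 7.9e-10). *Oxt* was higher by 2.10 (adjusted p = 0.0017), 5.73 (adjusted p = 1.1e-09) and 5.72 (adjusted p = 4.7e-09) over the same regions. Between hippocampus and cortex of PianpKO mice, *Avp* differed by -0.46 (adjusted p = 0.50) and *Oxt* by 0.01 (adjusted p = 0.995), so their order for *Avp* was opposite to that in control mice and in neither genotype called. In this fit, 6.67% of all probe sets were called in hypothalamus over amygdala, 20.8% over cortex, 12.5% over hippocampus and 14.7% in hippocampus over cortex.

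The receptor genes had a far smaller range. *Avpr1a*, the main vasopressin receptor gene of the brain, was 4.20, 4.81, 4.12, 4.61 and 4.67 in the hypothalamus of PianpKO mice and 4.91, 4.29, 4.38, 4.09 and 4.33 in that of control mice. In the other regions it stayed between 3.51 and 4.06 in PianpKO samples and between 3.50 and 4.04 in control samples. The hypothalamic samples of both genotypes were all above these ranges, and how many of all probe sets separate the regions in this way was not counted. Of 39 samples, 3 exceeded the array median, all of them hypothalamic. In PianpKO mice, *Avpr1a* was higher in the hypothalamus than in the amygdala by 0.57 (adjusted p = 0.0032), the cortex by 0.73 (adjusted p = 5.3e-05) and the hippocampus by 0.75 (adjusted p = 8.1e-05).

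*Oxtr* had a different regional pattern, with its highest mean in the amygdala. In amygdala it was 5.01, 5.41, 5.11, 5.59 and 5.42 in PianpKO mice and 5.42, 5.18, 5.61 and 5.27 in control replicates 1, 2, 3 and 5. In cortex it was 4.93, 4.68, 4.71, 4.37 and 4.60 in PianpKO mice and 4.44, 4.50, 4.16, 4.78 and 4.45 in control mice. The amygdala and cortex samples did not overlap in either genotype, though the share of all probe sets without overlap between these regions was not counted.

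In hippocampus, *Oxtr* was 5.20, 5.13, 4.75, 4.58 and 4.94 in PianpKO mice and 4.79, 4.66, 4.42, 4.07 and 4.78 in control mice. In hypothalamus it was 4.83, 4.91, 5.18, 4.89 and 5.03 in PianpKO mice and 4.46, 5.23, 4.54, 4.53 and 5.26 in control mice. Control hypothalamus fell into a lower set of 3 samples and a higher pair, replicates 2 and 5, which lay above all PianpKO samples. Its difference between control hypothalamus and amygdala, -0.55 (SE 0.18), was not called (adjusted p = 0.067), although it was when only probe sets above the median level were tested (adjusted p = 0.033). In PianpKO mice, *Oxtr* was lower in the hippocampus than in the amygdala (difference -0.39, SE 0.12, adjusted p = 0.048), where 11.5% of all probe sets were called, and higher in the amygdala than in the cortex by 0.65 (adjusted p = 0.00084), where 14.9% were.

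*Avpr1b*, the vasopressin receptor gene of pituitary corticotrophs and of the CA2 field of the hippocampus, read between 3.07 and 3.86 in all 39 samples, each below the array median. Its means in the hippocampus were 3.41 in PianpKO mice and 3.33 in control mice, and no regional difference was called in either genotype (control mice, adjusted p between 0.715 and 0.970). The CA2 neuron markers in the same hippocampal samples had means of 7.49 to 7.98 in PianpKO mice and 7.53 to 7.89 in control mice. That was above the cortex, while the control hippocampus overlapped with the control amygdala (7.31 to 7.57) and the control hypothalamus (7.29 to 7.58), so these markers did not single out the hippocampus. *Avpr1b* lay near the low end of the array values, and how large a regional difference could be detected at that level was not tested.

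**Figure D2:**
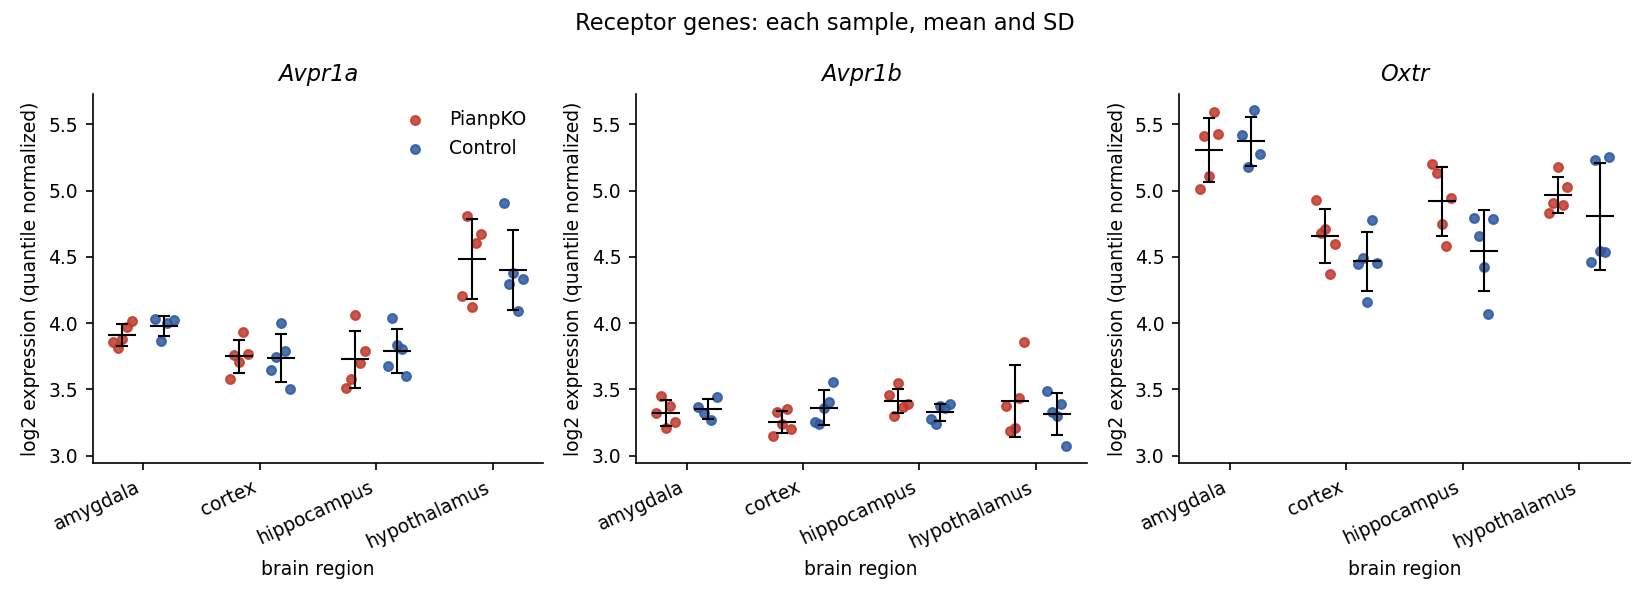
Log2 expression of *Avpr1a*, *Avpr1b* and *Oxtr* in every sample by brain region on a shared vertical axis, PianpKO mice in red left of control mice in blue, with the mean and 1 SD (n = 5, control amygdala n = 4). *Avpr1a* was raised in the hypothalamus of both genotypes, *Oxtr* had its highest values in the amygdala, and *Avpr1b* stayed between 3.07 and 3.86.

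Between genotypes, none of the 4 tested members was called in any region by limma after adjustment over all probe sets. Of all probe sets, 0.00787% were called in the amygdala, 0.0157% in cortex, and 0.00393% both in hippocampus and in hypothalamus. At an unadjusted p under 0.05, 1 of the 4 members passed in the hippocampus (*Oxtr*) and 0 in the other regions. No member, *Avp* included, had values of the genotypes that did not overlap in any region, where the share of all probe sets without overlap was 2.46% for the amygdala, 2.11% for cortex, 0.775% for hippocampus and 0.936% for hypothalamus. In bulk tissue, fewer cells of a type and less RNA per cell cannot be told apart.

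*Avp* in PianpKO mice relative to control mice differed by 0.98 in amygdala, -0.37 in cortex, -1.86 in hippocampus and 0.64 in hypothalamus. In hippocampus, 4 of 5 control samples were above every PianpKO sample but 1 control sample fell among them. In hypothalamus, 4 of 5 PianpKO samples exceeded every control sample, and PianpKO replicate 1 lay inside the control range. The hippocampal difference was -1.40 without control replicate 3 and -2.31 without control replicate 1, and the cortical one was -0.22 without PianpKO replicate 4.

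Markers of other tissue were read in the same samples. Of 59 measured genes of the marker lists, 0 were called between genotypes in any region by limma. At an unadjusted p under 0.05, 14 passed in amygdala, 10 in cortex, 1 in hippocampus and 8 in hypothalamus. The share of all probe sets at that unadjusted level within a region was not counted, for these genes or for the members and their pathway. In PianpKO hypothalamus, striatal projection neuron genes were lower in 5 of 5 cases (median -0.48, mean levels of 7.87 to 8.35 in PianpKO mice and 8.26 to 9.15 in control mice). Thalamic markers were higher in 5 of 5 (median 0.23, mean levels of 7.21 to 7.84 in PianpKO mice and 7.13 to 7.54 in control mice), as were amygdala neuron markers, which share *Prkcd* with them (median 0.23, mean levels of 7.33 to 7.80 in PianpKO mice and 7.30 to 7.38 in control mice). Hypothalamic neuropeptide genes were higher in 7 of 9 cases (median 0.14) and hypothalamic transcription factor genes in 6 of 9 (median 0.17). In cortex, hypothalamic transcription factor genes were lower in 7 of 9 cases (median -0.10) and cortical projection neuron genes in 5 of 5 (median -0.11). The part of these tissues in the *Avp* values was not tested.

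*Oxt* was 1.22 higher in PianpKO amygdala (7.51 ± 1.25, SD, n = 5) than in control amygdala (6.29 ± 1.07, SD, n = 4), with a 95% confidence interval of -0.21 to 2.64 and an adjusted p of 0.66 by limma. Without PianpKO replicate 3 the difference was 0.75, and without control replicate 3 it was 1.64. Its differences elsewhere were 0.10 in the cortex (interval -0.22 to 0.43), -0.27 in the hippocampus (interval -0.89 to 0.36) and 0.32 in the hypothalamus (interval -0.16 to 0.81). All adjusted p-values of *Oxt* were between 0.66 and 0.98, and its values in the genotypes overlapped in every region.

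*Oxtr* in the hippocampus was higher by 0.37 in PianpKO mice (4.92 ± 0.26, SD, n = 5) than in control mice (4.55 ± 0.30, SD, n = 5), with an interval of 0.03 to 0.71, and did not pass adjustment (adjusted p = 0.96 by limma). PianpKO replicates 1, 2 and 5 exceeded every control sample there, and replicates 3 and 4 lay among them. *Oxtr* differed by 0.19 in the cortex (interval -0.07 to 0.45), 0.16 in the hypothalamus (interval -0.20 to 0.52) and -0.06 in the amygdala (interval -0.35 to 0.23). *Avpr1a* differed between genotypes by -0.07 to 0.08 and *Avpr1b* by -0.11 to 0.10 over the 4 regions, with the bounds of all their intervals between -0.30 and 0.44.

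**Figure D3:**
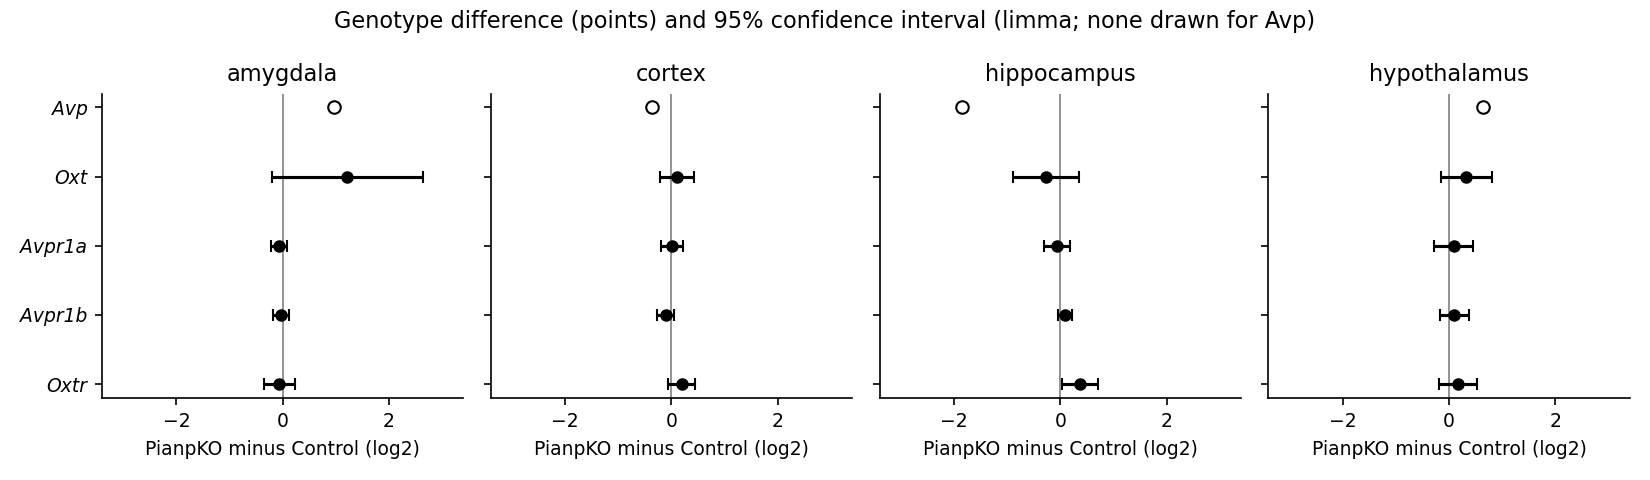
Difference between PianpKO and control mice on the log2 scale for each member (rows) in each region (panels), with filled points and 95% confidence intervals from limma for the 4 tested genes and an open point without an interval for *Avp*. Positive values are higher in PianpKO mice: *Avp* was at 0.98, -0.37, -1.86 and 0.64 from left to right, and the interval of *Oxtr* in the hippocampus ran from 0.03 to 0.71.

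Whether the genotype difference itself changed between regions was tested by an F test over the interaction terms in a fit of all 39 samples that kept each mouse as a random block. No probe set passed adjustment by limma, with 1310 of 25429 at an unadjusted p under 0.05. The adjusted p was 0.977 for *Oxt* and at least 0.998 for *Avpr1a*, *Avpr1b* and *Oxtr*. For *Avp* no test is given.

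The samples of a region were then set against each other, to see whether a mouse high in *Avp* was high in *Oxt*. After each genotype's mean was removed, the genes moved together in the amygdala (Pearson r = 0.90, n = 9, two-sided exact permutation p = 0.0017, adjusted over the 4 regions 0.0069; Spearman rho = 0.93, exact p = 0.00069, adjusted 0.0028). PianpKO replicates 1 and 3 were high in both and PianpKO replicate 4 low in both. Without the 2 samples farthest from the median of *Avp*, r was 0.81 (n = 7, exact permutation p = 0.021, adjusted 0.083), which no longer passed with the fewer samples. With any single sample left out, r was 0.85 to 0.94 and passed in 9 of 9 cases.

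In hippocampus, r was 0.78 (n = 10, exact permutation p = 0.039, adjusted 0.079; rho = 0.68, exact p = 0.099, adjusted 0.20). Control replicate 3, the highest in both genes, carried much of it: r was 0.57 without that sample and 0.35 without the 2 samples farthest from the median of *Avp*. Without PianpKO replicate 3 it was 0.86 (adjusted exact permutation p = 0.025). In cortex r was -0.21 (n = 10, exact permutation p = 0.49, adjusted 0.65; rho = -0.10, exact p = 0.78, adjusted 0.85), and without the 2 farthest samples it was -0.0031. In hypothalamus, where both genes were most abundant, r was -0.17 (n = 10, exact permutation p = 0.65, adjusted 0.65; rho = -0.07, exact p = 0.85, adjusted 0.85), and 0.09 without the 2 farthest.

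**Figure D4:**
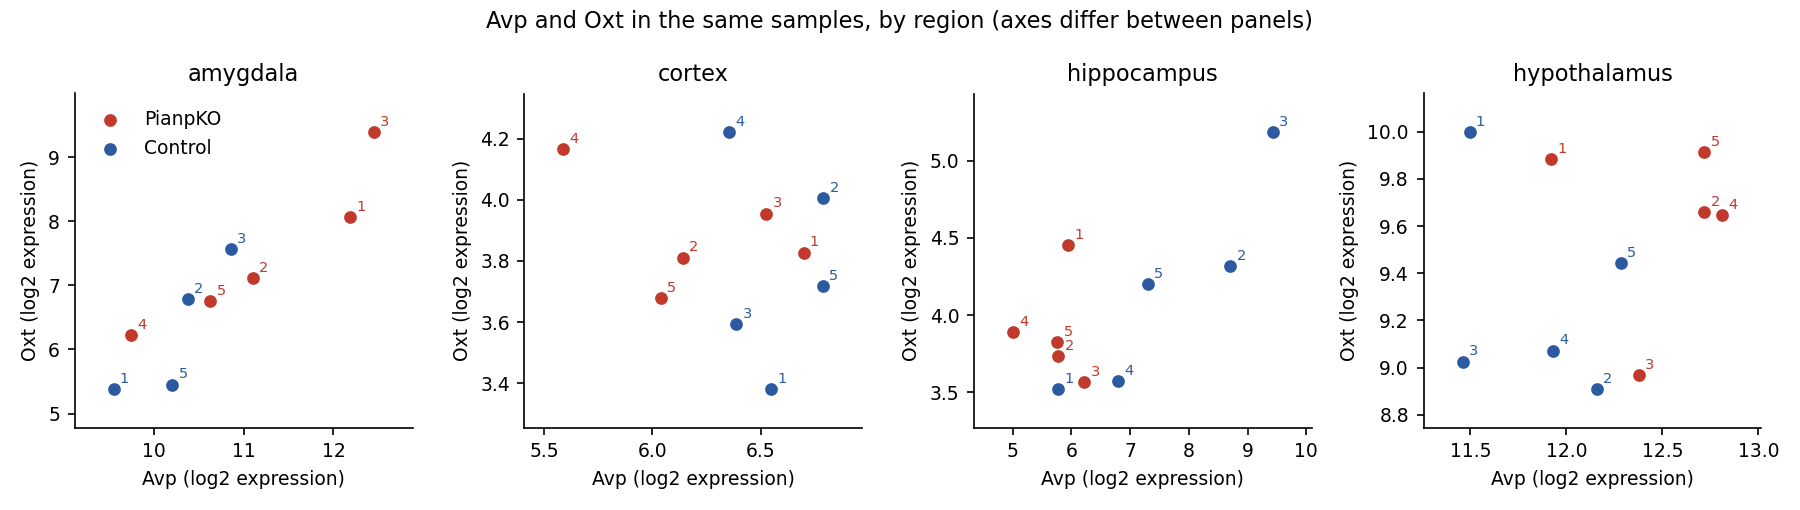
*Oxt* against *Avp* (log2 expression) in the same samples, 1 panel per region with its own axes, PianpKO mice in red and control mice in blue, numbers giving the replicate. Amygdala samples lie along a line (r = 0.90 within genotypes), the hippocampus has a single control sample high in both genes, and the cortex and hypothalamus show no such line.

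Other genes of hypothalamic neurons were read in the same samples, though not all of them marked the hypothalamus samples. In control hypothalamus, *Pmch* was 6.35, 5.48, 4.07, 4.75 and 6.21, and *Hcrt* was 3.79 to 4.04. In PianpKO hypothalamus, *Pmch* was 7.58, 10.83, 4.21, 8.82 and 4.31, and *Hcrt* was 3.71 to 6.65. *Cartpt* was 7.47 to 8.18 in control hypothalamus and 7.35 to 8.22 in control amygdala. *Trh* (8.61 to 9.43) and *Sim1* (5.30 to 6.07) were higher in control hypothalamus than in every control amygdala sample. In amygdala, *Pmch*, the gene of melanin-concentrating hormone of the lateral hypothalamus, was 8.83, 8.49, 10.57, 9.25 and 9.43 in PianpKO mice and 5.95, 6.48, 10.31 and 10.73 in control replicates 1, 2, 3 and 5. *Trh*, the gene of thyrotropin-releasing hormone, was 8.07, 6.56, 8.98, 7.09 and 7.05 in PianpKO mice and 5.34, 5.92, 7.65 and 6.65 in control mice there. *Sim1*, a transcription factor gene of the paraventricular and supraoptic nuclei, was 5.75, 4.59, 5.53, 3.89 and 4.41 in PianpKO amygdala and 4.89, 4.80, 5.17 and 4.86 in control amygdala. PianpKO amygdala replicates 1 and 3, the highest in *Avp* and *Oxt*, were also the highest PianpKO samples in *Trh* and *Sim1*. Both were likewise the highest in *Hcrt* (5.39 and 5.83), *Six3* (7.45 and 7.38), *Lhx1* (4.33 and 4.65) and *Nr5a1* (4.51 and 4.34). The other genes of the lists of hypothalamic neuropeptides and transcription factors had another order. Replicate 1 was the fourth of 5 in *Pmch*, replicate 2 the lowest in *Trh*, and replicate 4, the lowest in both peptides and in *Sim1*, was the highest in the neuropeptide genes *Gal* (6.07) and *Cartpt* (8.45).

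As lists, 6 of 9 measured hypothalamic neuropeptide genes were higher and 3 lower in PianpKO amygdala, with a median difference of 0.45 where that of all probe sets was -0.0034, and none was called. Their mean level was 5.79 to 6.34 in PianpKO amygdala and 4.80 to 6.14 in control amygdala, overlapping with the 5.36 to 6.60 of PianpKO hypothalamus and the 5.22 to 5.90 of control hypothalamus. Hypothalamic transcription factor genes were higher in 7 of 9 cases (median 0.16, means of 4.81 to 5.32 in PianpKO amygdala and 4.63 to 4.95 in control amygdala). The 5 genes of the suprachiasmatic nucleus, a list that shares *Six6* and *Lhx1* with them, were higher in 5 of 5 cases (median 0.16). All 5 measured genes of striatal projection neurons were lower in PianpKO amygdala (median -0.98, means of 7.05 to 7.41 in PianpKO mice and 7.74 to 8.51 in control mice). The part of hypothalamic, suprachiasmatic and striatal tissue in the *Avp* and *Oxt* values of the amygdala was not tested.

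In hippocampus, *Pmch* was 9.46, 4.69, 9.86, 6.76 and 6.65 in PianpKO mice and 7.77, 4.49, 9.24, 8.04 and 5.28 in control mice. PianpKO replicates 1 and 3 were thus high in *Pmch* while their *Avp* was 5.95 and 6.22, and control replicate 2 was the lowest control sample in *Pmch* while its *Avp* was 8.71. Control replicate 3 was high in both genes. *Hcrt*, the gene of hypocretin, was 5.27, 3.78, 6.16, 4.33 and 3.93 in PianpKO hippocampus and 4.18, 3.93, 5.09, 4.58 and 3.77 in control hippocampus, again highest in PianpKO replicates 1 and 3.

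*Sim1* was 4.06, 3.80, 4.06, 3.50 and 4.10 in PianpKO hippocampus and 3.52, 3.71, 3.77, 4.08 and 3.73 in control hippocampus, and *Trh* was 5.66, 5.54, 6.28, 6.05 and 6.12 in PianpKO hippocampus and 5.32, 5.43, 5.59, 5.43 and 5.43 in control hippocampus. Of the neuropeptide list, 5 of 9 genes were higher and 4 lower in PianpKO hippocampus (median 0.09, mean levels of 4.50 to 5.58 in PianpKO mice and 4.55 to 5.40 in control mice). Striatal projection neuron genes were lower in 5 of 5 cases (median -0.36, mean levels of 6.63 to 7.67 in PianpKO mice and 6.65 to 8.13 in control mice), and hypothalamic transcription factor genes in 7 of 9 (median -0.04, mean levels of 4.23 to 4.48 in PianpKO mice and 4.31 to 4.55 in control mice). Thalamic markers were lower in 5 of 5 cases (median -0.21, mean levels of 8.25 to 9.66 in PianpKO mice and 8.79 to 9.56 in control mice), and choroid plexus markers in 7 of 7 (median -0.10, mean levels of 6.96 to 8.29 in PianpKO mice and 7.28 to 8.37 in control mice). The part of these tissues in the hippocampal *Avp* values was not tested.

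**Figure D5:**
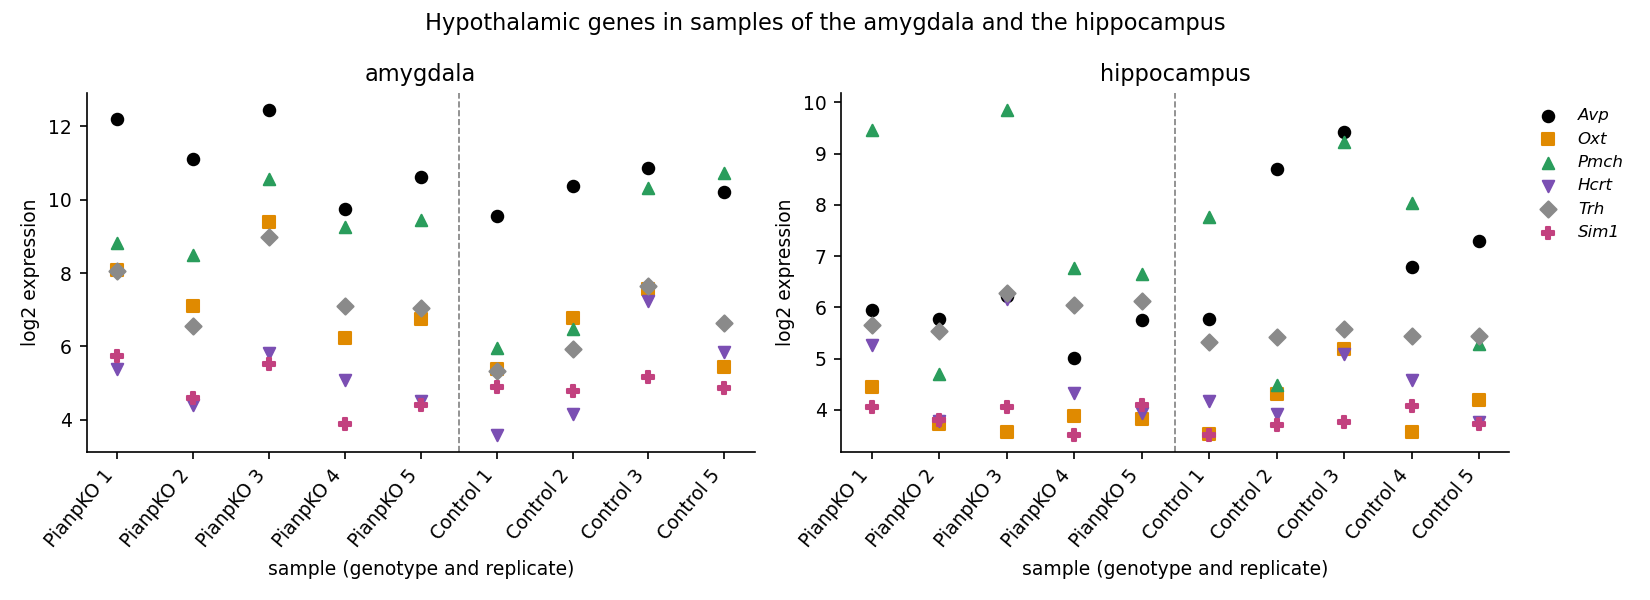
Log2 expression of *Avp*, *Oxt* and 4 other genes of hypothalamic neurons in each sample of the amygdala (left) and hippocampus (right), PianpKO mice left and control mice right of the dashed line. Levels of different genes are not comparable on an array, and the plot is read along each gene. In the amygdala *Avp*, *Oxt*, *Trh*, *Sim1* and *Hcrt* share their high PianpKO samples (1 and 3) while *Pmch* is 8.83 in PianpKO 1. In the hippocampus *Pmch* is high (9.46 and 9.86) in PianpKO samples whose *Avp* is 5.95 and 6.22.

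Around the peptides and receptors stand genes that process the precursors, carry the receptors' signal or specify the neurons. Of 25 such genes listed, 22 were measured, and 0 were called between genotypes in any region by limma, with 2 at an unadjusted p under 0.05 in the amygdala, 1 in cortex, 0 in hippocampus and 2 in hypothalamus. The smallest p among them was that of *Sim1* in the hypothalamus, with values of 5.99, 6.39, 6.37, 6.76 and 7.30 in PianpKO mice and 5.80, 6.04, 5.30, 5.34 and 6.07 in control mice, a difference of 0.85 (SE 0.23, adjusted p = 0.80). In that region, 4 of 5 PianpKO samples exceeded all control samples in *Sim1*. In cortex *Trpm2*, a calcium channel gene opened by ADP-ribose, differed by 0.39 (SE 0.12, adjusted p = 0.25), *Plcb3* by 0.20 (SE 0.09) and *Pam*, which amidates both peptides, by -0.12 (SE 0.06). In amygdala the smallest p-values were those of *Sim2* (0.21, SE 0.08), *Plcb1*, a phospholipase C gene (-0.18, SE 0.07), and *Gna11*, a Gq family gene (0.15, SE 0.07).

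Across regions of control mice, the shares of these genes called are given beside those of all probe sets. In hypothalamus over cortex, 12 of 22 were called (all probe sets, 23%), 5 of them higher and 7 lower, led by *Sim1* (2.02, SE 0.15, adjusted p = 1.6e-08 by limma), *Prkcb*, a protein kinase C gene (-0.75, SE 0.07), and *Ryr2*, a calcium release channel gene (-0.82, SE 0.10). Over the hippocampus 10 were called (all probe sets, 13.2%), 6 higher and 4 lower, led by *Sim1* (1.95, SE 0.15), *Pam* (0.41, SE 0.05) and *Otp*, a homeobox gene of neuroendocrine neurons (0.89, SE 0.12). Over the amygdala 7 were called (all probe sets, 7.41%), 4 higher and 3 lower, led by *Plcb4* (0.59, SE 0.09), *Otp* (0.76, SE 0.13) and *Ryr2* (-0.55, SE 0.10). *Otp* and *Sim1* were higher in the hypothalamus in each of these comparisons, and *Prkcb* and *Ryr2* lower.

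Between the other regions, hippocampus over amygdala had 6 genes called (all probe sets, 10.9%), with 1 higher, *Plcb4* (1.02, SE 0.09), and 5 lower, among them *Pcsk1*, a prohormone convertase gene (-1.02, SE 0.13), and *Sim1* (-1.17, SE 0.16). Hippocampus over cortex had 9 called (all probe sets, 14.5%), 3 higher and 6 lower, led by *Pou3f2*, a POU factor gene of neuroendocrine neurons (-0.98, SE 0.08), *Pcsk1* (-1.11, SE 0.12) and *Arnt2*, the partner of *Sim1* (-0.51, SE 0.07). Amygdala over cortex had 5 called (all probe sets, 10.2%), 2 higher and 3 lower, led by *Pou3f2* (-0.75, SE 0.09), *Sim1* (1.24, SE 0.16) and *Plcb4* (-0.65, SE 0.09). *Sim1* therefore had the regional order of *Avp* and *Oxt*, with hypothalamus above amygdala and both above the cortex and hippocampus.

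The genes most like each member over all 39 samples were found by Pearson correlation, given as a description since the points share regions and mice. For *Avp* they were *Oxt* (r = 0.95), *Tmem91* (0.94) and *Fezf1* (0.94), a zinc finger gene of the ventromedial hypothalamus. For *Oxt* they were *Sytl4* (0.97), a vesicle-docking gene, *Ndn* (0.96) and *Peg10* (0.96), both imprinted. For *Avpr1a* they were *Ankrd55* (0.86), *Klhl1* (0.86) and *Qpct* (0.84), for *Oxtr* they were *Syt17* (0.79), *Tmem35a* (0.78) and *Slc22a8* (0.78), and for *Avpr1b*, where the range was small, *A430057M04Rik* (0.71), *Gm15319* (0.67) and *Olfr1234* (0.64).

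Much of that likeness is the order of the regions. With the mean of each of the 8 groups removed, *Oxt* was still the gene most like *Avp* (r = 0.65, n = 39), followed by *Fxyd6* (0.63), *Srrm3* (0.63), *Dpy19l1* (0.60) and *Erp29* (0.59). For *Oxt* the order was *Sytl4* (0.74), *Nkx6-2* (0.72), *Slc32a1* (0.68), which encodes the vesicular GABA transporter, *Arhgef10* (0.68) and *Myrf* (0.67), a myelin regulator. Among the receptors, the deviations of *Avpr1a* correlated with those of *Avp* at 0.05 and with those of *Oxt* at 0.10, and those of *Oxtr* correlated at -0.01 with *Avp* and -0.16 with *Oxt*.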

How the data were processed

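Gene expression was measured with Affymetrix Mouse Gene 2.0 ST arrays in 39 samples. The authors deposited log2 values after RMA background correction and quantile normalization with a custom chip definition that joins probes by Entrez gene. The table holds 25429 probe sets, 24675 with 1 gene symbol in the platform annotation and 754 without. Quantile normalization gives every array the same distribution, so levels are relative to the other probe sets of an array. No detection values, scan dates or individual ages were used, and probe sets cannot be compared with each other in level.

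Genotypes were compared within each region, and regions within each genotype with mice as random blocks through duplicateCorrelation, by lmFit and eBayes in limma 3.58.1 (R 4.3.3, statmod 1.5.0). Benjamini-Hochberg adjustment covered every probe set, and a gene was called at an adjusted p under 0.05. Intervals are 95%. Groups were taken from the sample titles and mice from the mouse numbers in the descriptions. In 7 of 10 mice the samples of different regions deviated together at a mean correlation over 0.1 (range 0.03 to 0.29), and the correlation within a mouse was 0.12 in control mice and 0.08 in PianpKO mice. *Avp* and *Oxt* were correlated within a region by exact permutation within genotypes (scipy 1.17.1). The genotype fits, hypothalamus over cortex in control mice, the interaction test and the exact permutation were tried on simulated data first. The other fits were not. Alternatives were other fits, the ANOVA named in the methods, normalization within groups, a filter on dim probe sets, array weights and leaving out each replicate. Members, gene lists and tests were chosen with earlier results of these data known. Named were the members, *Pianp*, up to 3 pathway genes with the smallest p per comparison, marker genes given beside a member, and the 3 genes most like each member over all samples (5 for *Avp* and *Oxt* after removal of group means).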

Additional observations from a re-analysis of the deposited data

Results flagged for a closer look

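*Oxt* in PianpKO hypothalamus replicate 3 was 8.97, the lowest of its group, with the other 4 PianpKO samples between 9.65 and 9.91. *Avpr1a* in control amygdala replicate 2 was 3.87, the lowest of its group, with the other control samples between 4.005 and 4.03. Both stood far from the rest of their group by Dixon's criterion. Of the 40 groups of samples looked at, 2 met it, and chance gives about 1 in 20.

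*Avp* differed between PianpKO and control mice in opposite directions in 2 regions of the same mice. It was -1.86 in the hippocampus, where every PianpKO sample lay below the control mean, and 0.64 in the hypothalamus, where every PianpKO sample lay above the control mean. No p is given for this difference between the regions, because *Avp* had been chosen for its genotype difference in these samples.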

How the results depend on the processing

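Of 347 genotype differences of members recomputed under the alternatives, 339 were counted as the same and 8 changed sign. The same meant an unchanged direction and side of the threshold. For *Avp*, which was not tested between genotypes, it meant a shift smaller than the pooled SD of the genotypes. Leaving out a single replicate cannot move a group mean that far, so those *Avp* cases, counted among the 339, say nothing of stability. The hippocampal *Avp* difference ran from -2.31 to -1.40 in them. Of 288 regional differences, 259 kept direction and side, 15 changed sign, 3 became called and 11 lost their call. Of 143 counts of called members, 138 stayed within 1.5 times and 5 did not. The cause of each change below was not tested.

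In control mice, 3 members were called in hypothalamus over amygdala, 1 with no replicate block and 1 to 2 when a control replicate was left out, and with the mouse as a fixed block the pairing gave 2, since *Avpr1a* then lost its call (adjusted p = 0.058). In hippocampus over cortex, 0 were called and 0 to 1 without a control replicate. *Oxtr* in hypothalamus over cortex became called without control replicate 4 (0.49). The replicate number as a block between genotypes left 0 members called in each region. Same-numbered mice of the other genotype correlated at -0.09 to 0.24, over 0.1 in 8 of 19 cases. Those of replicate 2 correlated at 0.24 in amygdala, 0.16 in cortex, 0.16 in hippocampus and 0.23 in hypothalamus. Whether same-numbered mice shared a step of handling is not in the labels and was not tested.

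With PianpKO mice in place of control mice, *Avpr1b* turned to 0.0911 in hypothalamus over amygdala, 0.159 over cortex, 0.000293 over hippocampus, 0.0908 in hippocampus over amygdala, 0.159 over cortex and 0.0681 in amygdala over cortex, and in hippocampus over cortex *Avp* turned to -0.46 and *Avpr1a* to -0.0209. With array weights, *Avpr1a* between genotypes in the cortex turned to -0.0241.

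Leaving out 1 replicate turned the sign of small differences. Between genotypes, *Oxtr* in the amygdala ranged from -0.13 to 0.0163, *Avpr1b* in the amygdala from -0.0617 to 0.000620, *Avpr1a* in the cortex from -0.0454 to 0.0786 and *Avpr1b* in the hypothalamus from -0.0143 to 0.15. Between regions of control mice, *Avpr1b* ranged from -0.0783 to 0.0513 in hypothalamus over amygdala, -0.12 to 0.0624 over cortex, -0.0677 to 0.0646 over hippocampus and -0.0400 to 0.0192 in amygdala over cortex, and *Avpr1a* from -0.00549 to 0.11 in hippocampus over cortex. The correlation of *Avp* and *Oxt* ranged from 0.85 to 0.94 in the amygdala, 0.57 to 0.86 in the hippocampus, -0.32 to 0.12 in the cortex and -0.33 to 0.14 in the hypothalamus. Without the 2 samples farthest from the median of *Avp* it was 0.81 in the amygdala and no longer passed, and 0.0931 in the hypothalamus, with its sign turned.

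*Avpr1a* and *Avpr1b* have no value under the filter on dim probe sets, which removed both. Precision is limited by having 4 or 5 mice a group, and the levels of *Avpr1b*, and of *Avpr1a* outside the hypothalamus, were below the array median.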
